A study of Mus musculus with 8 samples.

Results

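The integrated stress response and the cytosolic tRNA synthetases are described here as a group of 34 genes, out of 22040 gene IDs in the deposited tables. The cells were of the E14 line, mouse embryonic stem cells that are pluripotent in culture. The genes were chosen by name, as 14 transcription factors, feedback genes and targets of the response and 20 genes for cytosolic tRNA synthetases. All 34 were found in both tables and passed the filter on low values in each knockdown comparison. The filter took the mean over knockdown and control libraries together. Atf3 and Cebpb passed it only through their knockdown values, since both averaged below its threshold in each control group. RNA was sequenced in 8 libraries that form 4 groups of 2. In Cct7 KD and Cct5 KD, cells carried a pLKO-Tet on lentivirus with an inducible short hairpin RNA (shRNA) against Cct7 or Cct5, and each had its own controls with the empty vector, Cct7 KD Ctr and Cct5 KD Ctr. All cells, controls included, were kept in serum with LIF, had gone through 14 days of puromycin (0.5 µg/ml) with positive clones picked, and received doxycycline at 2 µg/ml for 2 days. Cct5 and Cct7 encode subunits of the cytosolic chaperonin CCT (TRiC), whose clients include actin and tubulin, and the study asked whether they are a barrier between pluripotency and totipotency. The number of hairpins or clones behind a group, and whether its libraries came from separate cultures, is not stated, so the p-values measure the spread between 2 libraries, which may be technical.

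In the integrated stress response, kinases that sense amino acid shortage, misfolded protein in the endoplasmic reticulum, double-stranded RNA or haem shortage phosphorylate the initiation factor eIF2. Most translation then slows, while translation of Atf4 mRNA rises, and the ATF4 protein turns on genes for amino acid supply, redox balance and, when stress lasts, growth arrest or death. Many cytosolic tRNA synthetases, the enzymes that attach each amino acid to its tRNA, are among the targets ascribed to ATF4. Several of the synthetases are held in a multi-synthetase complex on scaffold proteins. RNA levels do not report the phosphorylation of eIF2 or the amount of ATF4 protein, and neither was measured in the files used here.

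ATF4 binds DNA with C/EBP proteins at a composite element with the core TGATGNAA, and the promoters that hold this core are shown beside the levels described further on. Promoters of 300 bases, from 250 before to 50 after the RefSeq start site (GRCm38.p6), were matched for 26 of the 34 genes and searched on both strands. The core was present in a promoter of 10 of the 26, or 38.5%, against 4.51% of all 27025 genes with a promoter of that length (3.97% of 32851 promoters). The longer core TGATGNAAT was in 4 of the 26, of them 1 of 13 stress response genes and 3 of 13 synthetases, against 1.08% of all genes. The shorter core was found in 5 of 13 stress response genes and in 5 of 13 synthetases. All 5 of these synthetases belong to the 8 matched synthetases that are often listed as ATF4 targets, and none to the 5 other matched ones. Mitochondrial synthetase promoters held it in 0 of 14 cases. The stress response genes and the 8 listed synthetases were named for a known link to the response or to ATF4. A high share among them is therefore no independent result. A match is a description of letters, not a sign of binding, and a window without one says nothing about the factor. Windows of up to 60 bases follow, read on the gene's strand and reaching at most 30 bases past the start site, with the core in capitals (TTGCATCA and alike are the core read on the other strand).
Atf3 (chr1:191183410-191183469, minus strand): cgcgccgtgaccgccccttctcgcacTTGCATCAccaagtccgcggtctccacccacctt
Trib3 (chr2:152344031-152344072, minus strand): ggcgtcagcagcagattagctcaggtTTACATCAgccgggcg
Nupr1 (chr7:126625547-126625606, minus strand): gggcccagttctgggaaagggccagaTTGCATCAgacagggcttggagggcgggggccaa
Asns (chr6:7693199-7693258, minus strand): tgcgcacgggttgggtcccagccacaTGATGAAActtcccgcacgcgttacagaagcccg
Chac1 (chr2:119351023-119351082, plus strand): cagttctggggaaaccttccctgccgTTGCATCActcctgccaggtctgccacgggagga
Aars, upstream match (chr8:111033704-111033763, plus strand): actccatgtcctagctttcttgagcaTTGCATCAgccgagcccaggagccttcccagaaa
Aars, match past the start (chr8:111033825-111033871, plus strand): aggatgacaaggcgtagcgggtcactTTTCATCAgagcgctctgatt
Gars (chr6:55037945-55038004, plus strand): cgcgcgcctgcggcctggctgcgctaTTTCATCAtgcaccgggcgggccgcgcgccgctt
Iars (chr13:49682111-49682159, plus strand): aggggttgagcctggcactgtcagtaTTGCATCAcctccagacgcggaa
Tars (chr15:11399640-11399699, minus strand): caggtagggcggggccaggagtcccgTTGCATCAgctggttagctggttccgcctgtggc
Yars (chr4:129189880-129189932, plus strand): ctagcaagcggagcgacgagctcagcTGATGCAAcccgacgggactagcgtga

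Levels are given as scaled FPKM, fragments per unit of transcript length and sequencing depth as deposited by the authors and then divided by a factor per library. The factors, medians of ratios over 13774 IDs, lay between 0.8413 and 1.4502 in the 8 libraries, since FPKM of Cct5 KD summed to 745380 and 743612 and those of the other 6 libraries to between 471364 and 496665. Changes are differences in log2(scaled FPKM + 1), which understate the change of low genes, and count as higher or lower where the limma adjusted p over all genes tested was under 0.05. Depth, read from the step between low values, was 20.8 and 18.9 M fragments for the Cct7 KD libraries and 22.4 and 23.4 M for their controls, and 54.9 and 21.2 M for the Cct5 KD controls. Cct5 KD had no such step. Its values were 9/8 of the same-numbered Cct7 KD value plus a remainder, which was 0 or more in 19881 of 19896 shared IDs, exactly 0 in 449 and 427 of them, and 28.7% of the total in each library. Cct5 KD is therefore not independent of Cct7 KD, and the remainder, scaled in the same way and with steps of its own (55.9 and 52.8 M), is given beside it.

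As a check of the labels, Cct7 had 14.9 and 18.2 scaled FPKM in Cct7 KD, against 316 and 329 in Cct7 KD Ctr. Cct5 had 49.0 and 50.6 scaled FPKM in Cct5 KD, against 437 and 435 in Cct5 KD Ctr. In the remainder Cct7 had 885 and 881 scaled FPKM, against 330 and 329 in Cct5 KD Ctr. No remainder could be formed for Cct5, which is among the 15 IDs where it would be negative. The level of Cct5 therefore does not check the other Cct5 KD values. All 8 pluripotent stem cell markers were present in every library, with summed levels of 927 and 926 scaled FPKM in Cct7 KD against 4270 and 4498 in Cct7 KD Ctr. In Cct5 KD they summed to 1362 and 1358 and in the remainder to 3025 and 3009, against 4565 and 4490 in Cct5 KD Ctr. By gene, all 8 were lower in Cct7 KD (median log2 change −2.19) and in Cct5 KD (−1.90). In the remainder 7 of the 8 were lower, 5 of them by at least 2-fold (median −1.79). The 7 trophoblast markers summed to 216 in each Cct7 KD library against 32.4 and 34, and to 167 and 168 in Cct5 KD and 21.6 and 21.7 in the remainder against 31.6 and 33.0, nearly all of it Krt8 and Krt18, while Cdx2, listed in the Cct7 table, stayed at 0.22 or less and was at 0 in the first Cct7 KD Ctr library. The 6 primitive endoderm markers summed to 12.5 and 14.3 in Cct7 KD against 5.58 and 5.39, and to 10.6 and 12 in Cct5 KD and 5.22 and 5.37 in the remainder against 5.47 and 5.70. Feeder fibroblast markers, 5 of 8 of which were in the tables, summed to at most 11.8 in any library, with Col3a1 at 0 in Cct5 KD. Hprt, the purine salvage enzyme, chosen after its values were seen, had at most 1.16 scaled FPKM in Cct7 KD, Cct5 KD and the remainder against 188 to 193 in the 4 controls. The part of these shifts in the results that follow was not tested, and in bulk RNA fewer cells of a type and less RNA per cell cannot be told apart. Hprt separated all KD values from all controls, and the cause of this was not tested. An effect of the knockdown and any other difference between KD and control cells, such as the clones picked, cannot be told apart here.

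The knockdowns were compared with their controls to ask which of the 34 genes differed. Stress response genes were mostly higher in Cct7 KD and most synthetases lower. Of the 14 stress response genes, 12 were higher, Cth was lower and Sesn2 did not pass the test, with a median change of 0.95. The 12 include Atf3 and Cebpb, which passed the filter only through their KD values (means of 0.908 and 0.665 scaled FPKM in Cct7 KD Ctr). Of the 20 synthetases, 3 were higher, 12 lower and 5 not called, with a median of −0.41. These counts stand on a background in which most genes passed, with 80.6% of 13804 genes called, 39.9% higher and 40.7% lower, and a median change of −0.01. Summed over the group, the stress response genes had 752 and 745 scaled FPKM in Cct7 KD against 381 and 383 in Cct7 KD Ctr, and the synthetases 1570 and 1552 against 2228 and 2243.

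Cct5 KD showed the same division in values that hold the multiple of Cct7 KD. Of the stress response genes 13 were higher and Sesn2 lower (median 0.84), and of the synthetases 4 were higher, 15 lower and Hars was not called (median −0.42). Across all 13768 genes tested, 40.2% were higher and 41.7% lower, with a median of −0.01. In the remainder 11 stress response genes were higher, Sesn2 and Stc2 lower and Cebpb not called (median 0.79), while 5 synthetases were higher, 11 lower and 4 not called (median −0.35), against 42.2% higher and 40.1% lower of 13473 genes and a median of 0.02. In each of the 3 comparisons the KD values of all 34 genes lay outside the range of the controls, as they did in 90.7% (Cct7 KD), 90.9% (Cct5 KD) and 91.6% (remainder) of all genes tested.

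The scaling decides the sign of small changes, and in Cct5 KD of larger ones too. Among others, Mars1, Rars, Vars and Lars changed there by −0.75, −0.73, −0.67 and −0.59 as scaled and turned positive without scaling. With FPKM as deposited, the median of all genes moved to 0.15 in Cct7 KD and to 0.68 in Cct5 KD, and the share of higher genes among those called to 60.6% and 87.3%, against 49.5% and 49.1% after scaling. At a common FPKM total the medians were 0.22, 0.16 and −0.15 in Cct7 KD, Cct5 KD and the remainder, and the shares of higher genes 64.5%, 61.1% and 40.5%, against 51.3% for the remainder as scaled. The stress response list kept its direction, with 13 higher and 1 lower in Cct7 KD and 14 higher in Cct5 KD without scaling, and 13 higher and 0 lower in each at a common total. The synthetases of Cct7 KD then counted 8 higher and 12 lower under either alternative. Those of Cct5 KD turned round without scaling, with 13 higher and 3 lower, and stayed mostly lower at a common total, with 7 higher and 11 lower (median −0.22). In the remainder 3 were higher and 16 lower at a common total. The direction of the synthetases is therefore stated relative to the median gene.

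**Figure D1:**
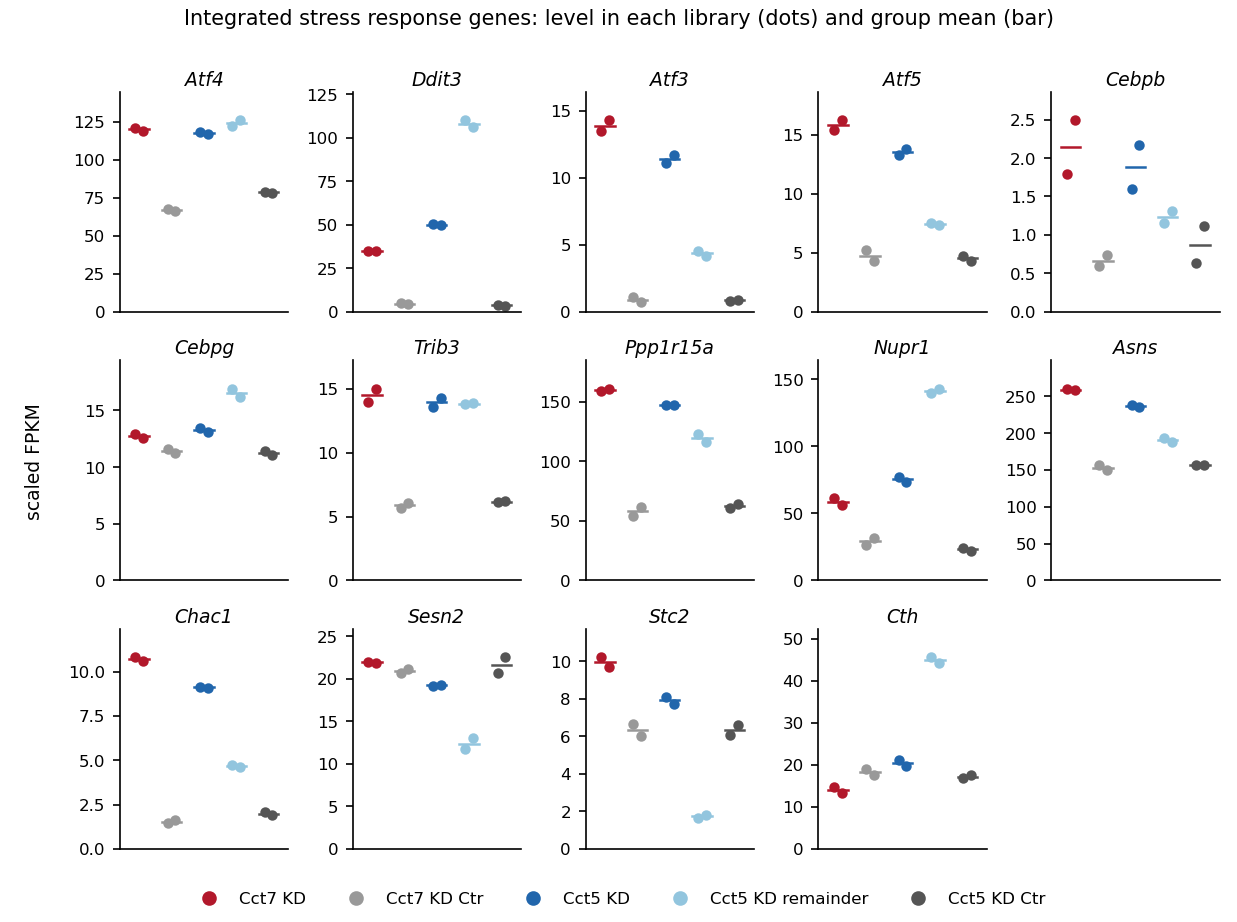
Scaled FPKM of the 14 stress response genes in each library (dots) with the mean of each pair (bar); each panel has its own axis from 0, and groups run from Cct7 KD and its controls to Cct5 KD, its remainder and its controls. Ddit3 and Nupr1 sit highest in the remainder, and Atf3, Chac1 and Stc2 highest in Cct7 KD.

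Among the transcription factors, Atf4, the central effector, had 121 and 119 scaled FPKM in Cct7 KD, against 67.8 and 66.5 in Cct7 KD Ctr (log2 change 0.82, SE 0.03). It had 118 and 117 in Cct5 KD and 122 and 126 in the remainder, against 78.6 and 78.5 in Cct5 KD Ctr (0.58 and 0.65). Atf4 was thus higher in every knockdown library, and under each scaling. Its change was 1.011 in Cct7 KD and 1.35 in Cct5 KD without scaling, and 1.08 in Cct7 KD, 0.77 in Cct5 KD and 0.46 in the remainder at a common total. Ddit3 (ENSMUSG00000025408, chromosome 10, 127290774 to 127296288), the gene of CHOP, a factor linked to stress-induced death, had 35.1 and 35.0 scaled FPKM in Cct7 KD, against 4.85 and 4.69 in Cct7 KD Ctr (2.64, SE 0.04). It had 50.6 and 49.7 in Cct5 KD and 110 and 106 in the remainder, against 4.00 and 3.51 in Cct5 KD Ctr (3.43 and 4.52). The change in the remainder exceeded that in Cct7 KD by 1.88 (SE 0.07, limma adjusted p = 6.5e-07). Ddit3 overlaps another annotated protein-coding gene of the same name, on the same strand, by 2925 bases, and that gene has no values in the deposited data. It also overlaps Mars1, the methionyl-tRNA synthetase gene on the opposite strand, by 68 bases. The strand setting of the counting is not given, and the part of shared reads in the Ddit3 values was not tested. Other members, such as Aars, Cebpb and Farsb, overlap annotated genes too, and shared reads were not tested there either. Mars1 had 48.4 and 46.8 scaled FPKM in Cct7 KD, against 75.1 and 75.5 in Cct7 KD Ctr.

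Atf3 (ENSMUSG00000026628, chromosome 1, 191170296 to 191218039), a stress-induced factor of the same family, had 13.5 and 14.3 scaled FPKM in Cct7 KD, against 1.10 and 0.713 in Cct7 KD Ctr (2.97, SE 0.11). It had 11.1 and 11.7 in Cct5 KD and 4.58 and 4.19 in the remainder, against 0.832 and 0.908 in Cct5 KD Ctr (2.73 and 1.53). The Cct7 KD libraries stood highest, and the remainder change was lower than that of Cct7 KD by 1.44 (SE 0.15, adjusted p = 6.2e-05). Atf5, which is controlled at translation much as Atf4 is, had 15.4 and 16.2 scaled FPKM in Cct7 KD, against 5.21 and 4.30 in Cct7 KD Ctr (1.55). It had 13.3 and 13.8 in Cct5 KD and 7.53 and 7.33 in the remainder, against 4.71 and 4.33 in Cct5 KD Ctr (1.40 and 0.61). Cebpb and Cebpg encode C/EBP proteins that can pair with ATF4. Cebpb had 1.79 and 2.49 scaled FPKM in Cct7 KD, against 0.595 and 0.736 in Cct7 KD Ctr (0.91), and its 1.16 and 1.31 in the remainder, against 0.635 and 1.11 in Cct5 KD Ctr, did not pass (0.27, adjusted p = 0.14). Cebpg lay between 12.6 and 16.9 scaled FPKM in the KD values and between 11.1 and 11.6 in the controls. Its change of 0.16 in Cct7 KD lost its call in 3 of the 4 fits that left out 1 library.

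Feedback genes and the regulator Nupr1 were higher in each comparison. Ppp1r15a, the stress-induced subunit (GADD34) of the phosphatase that removes phosphate from eIF2, had 159 and 161 scaled FPKM in Cct7 KD, against 54.2 and 61.6 in Cct7 KD Ctr (1.45, SE 0.06). It had 147 in each Cct5 KD library and 123 and 116 in the remainder, against 60.6 and 63.8 in Cct5 KD Ctr (1.23 and 0.93). Trib3, a pseudokinase that restrains ATF4 and CHOP, had 14.0 and 15.0 scaled FPKM in Cct7 KD, against 5.66 and 6.09 in Cct7 KD Ctr (1.17, SE 0.06). It had 13.6 and 14.3 in Cct5 KD and 13.8 and 13.9 in the remainder, against 6.10 and 6.25 in Cct5 KD Ctr (1.06 and 1.05). For Trib3 the difference between the remainder and Cct7 KD did not pass the test (−0.13, SE 0.07, adjusted p = 0.15). Nupr1 (ENSMUSG00000030717, chromosome 7, 126623249 to 126630861), a small stress-induced nuclear protein, had 61.3 and 56.2 scaled FPKM in Cct7 KD, against 26.7 and 31.5 in Cct7 KD Ctr (0.99, SE 0.08). It had 76.9 and 73.8 in Cct5 KD and 140 and 143 in the remainder, against 24.5 and 21.8 in Cct5 KD Ctr (1.66 and 2.56). Like Ddit3, Nupr1 stood highest in the remainder.

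Among the metabolic and secreted targets, Asns, which makes asparagine, had the highest level of the 14, at 260 and 258 scaled FPKM in Cct7 KD against 156 and 150 in Cct7 KD Ctr (0.76, SE 0.03). It had 238 and 236 in Cct5 KD and 193 and 188 in the remainder, against 156 and 157 in Cct5 KD Ctr (0.60 and 0.28). Chac1, which degrades glutathione, had 10.8 and 10.6 scaled FPKM in Cct7 KD, against 1.45 and 1.63 in Cct7 KD Ctr (2.21, SE 0.07). It had 9.14 and 9.06 in Cct5 KD and 4.74 and 4.59 in the remainder, against 2.07 and 1.91 in Cct5 KD Ctr (1.76 and 0.92). Chac1 and Asns were thus higher in every KD library, and by less in the remainder than in Cct7 KD (differences of −1.28 and −0.48, adjusted p = 9.9e-06 and 1.7e-05).

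The other 3 targets did not share this direction throughout. Sesn2, a leucine sensor that restrains mTORC1, had 22.0 and 21.8 scaled FPKM in Cct7 KD, against 20.7 and 21.1 in Cct7 KD Ctr (0.06, adjusted p = 0.14). It had 19.1 and 19.3 in Cct5 KD and 11.7 and 13.0 in the remainder, against 20.7 and 22.5 in Cct5 KD Ctr, and was lower in both (−0.16 and −0.76), though its change in Cct5 KD turned positive without scaling (0.59) and at a common total (0.03). Sesn2 overlaps an annotated noncoding gene on the same strand by 6089 bases. Stc2, the secreted stanniocalcin-2, had 10.2 and 9.70 scaled FPKM in Cct7 KD, against 6.64 and 5.99 in Cct7 KD Ctr (0.59, SE 0.07). It had 8.07 and 7.74 in Cct5 KD but 1.64 and 1.82 in the remainder, against 6.08 and 6.60 in Cct5 KD Ctr (0.28 and −1.43). The higher Stc2 in Cct5 KD was therefore in the multiple of Cct7 KD, and the remainder lay below every control. Cth, which makes cysteine from cystathionine, had 14.7 and 13.3 scaled FPKM in Cct7 KD, against 18.9 and 17.6 in Cct7 KD Ctr (−0.36, SE 0.06). It had 21.1 and 19.8 in Cct5 KD and 45.6 and 44.3 in the remainder, against 16.8 and 17.5 in Cct5 KD Ctr (0.24 and 1.34). Cth thus moved in opposite directions in Cct7 KD and the remainder, and in Cct7 KD it was no longer called at a common total (−0.12, adjusted p = 0.13).

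**Figure D2:**
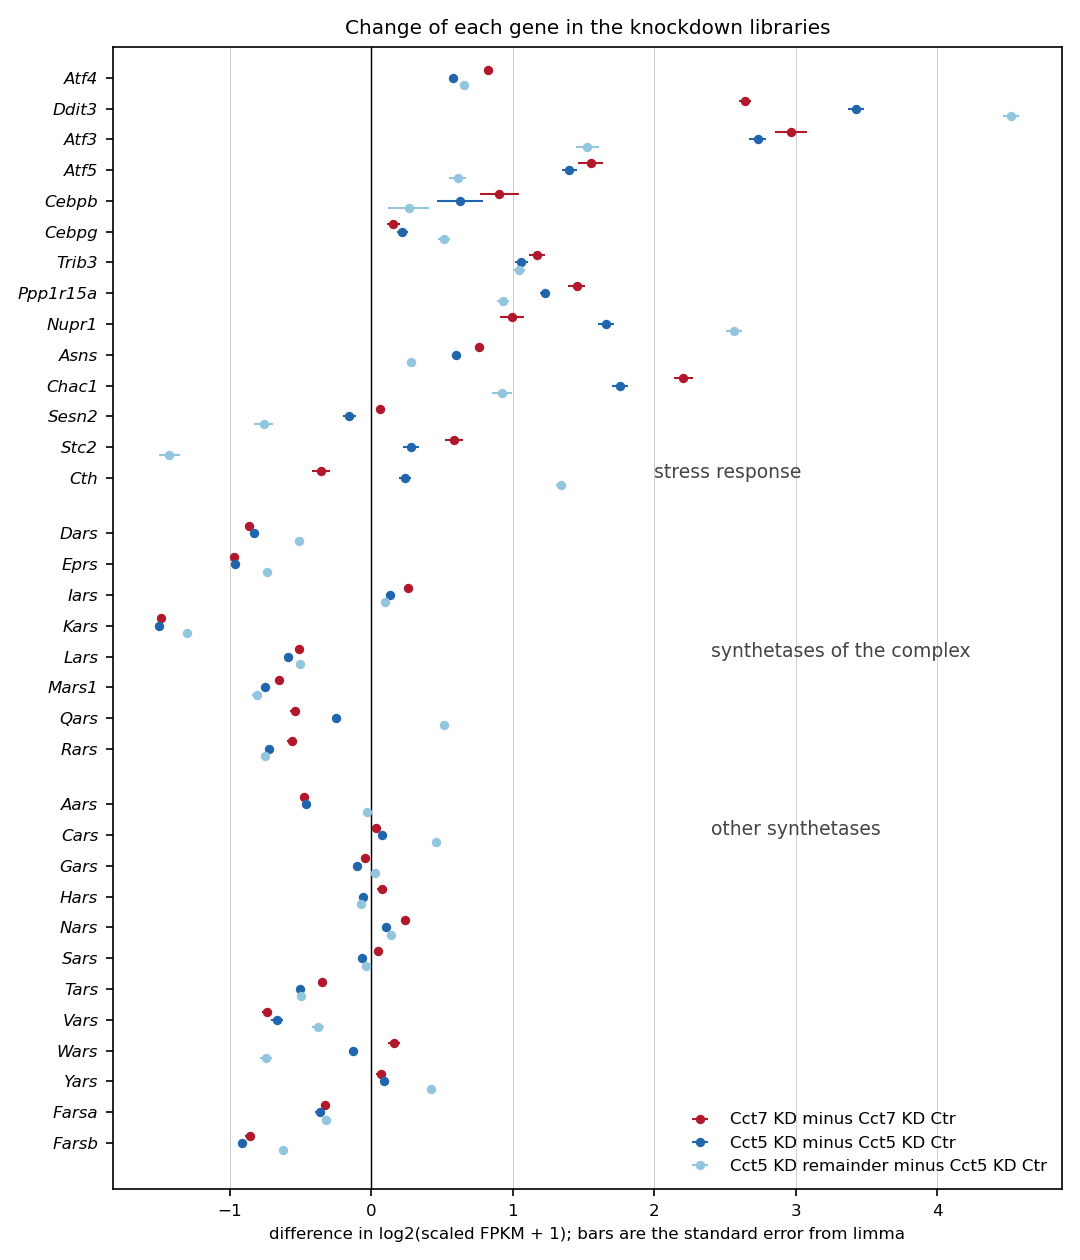
Change of each of the 34 genes as the difference in log2(scaled FPKM + 1), KD minus its controls, with the SE from limma as bars: Cct7 KD, Cct5 KD and the Cct5 KD remainder. Stress response genes lie mostly right of 0 and reach 4.52 for Ddit3 in the remainder, and synthetases of the complex lie mostly left of 0, down to −1.503 for Kars.

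Synthetases of the multi-synthetase complex were lower with the exception of Iars and, in the remainder, Qars. In Cct7 KD 7 of 8 were lower (median −0.61), in Cct5 KD 7 of 8 (−0.74, with 3 higher and 2 lower if left unscaled) and in the remainder 6 of 8 (−0.63). Kars (ENSMUSG00000031948, chromosome 8, 111993443 to 112011323), the lysyl-tRNA synthetase, was the most abundant of the 20 in the controls and had the largest change. It had 148 and 146 scaled FPKM in Cct7 KD, against 411 and 416 in Cct7 KD Ctr (−1.49, SE 0.03, adjusted p = 1.5e-06). It had 149 and 147 in Cct5 KD and 173 and 169 in the remainder, against 423 and 422 in Cct5 KD Ctr (−1.503 and −1.30). Kars was lower in every KD library under each scaling. Eprs, the enzyme for glutamate and proline, had 109 and 110 scaled FPKM in Cct7 KD, against 217 and 214 in Cct7 KD Ctr (−0.97). It had 111 and 112 in Cct5 KD and 131 and 130 in the remainder, against 218 and 219 in Cct5 KD Ctr (−0.97 and −0.74). Dars, for aspartate, had 110 and 105 scaled FPKM in Cct7 KD, against 196 and 198 in Cct7 KD Ctr (−0.86).

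Of the other complex members, Lars, Mars1 and Rars, for leucine, methionine and arginine, changed by between −0.51 and −0.65 in Cct7 KD and between −0.50 and −0.81 in the remainder. Iars, for isoleucine, was the exception, with 108 and 105 scaled FPKM in Cct7 KD, against 89.1 and 88.2 in Cct7 KD Ctr (0.26, adjusted p = 0.00038). Its rise in the remainder, 99.0 and 99.9 against 92.8 and 93.0 scaled FPKM in Cct5 KD Ctr, turned to −0.10 at a common total. Qars (ENSMUSG00000032604, chromosome 9, 108507706 to 108515941), for glutamine, had 55.1 and 56.9 scaled FPKM in Cct7 KD, against 81.5 and 82.6 in Cct7 KD Ctr (−0.54, SE 0.03). It had 66.7 and 68.2 in Cct5 KD and 115 in each remainder, against 80.3 in each Cct5 KD Ctr library (−0.25 and 0.51). Qars was thus below the controls in Cct7 KD and above them in the remainder, a difference of 1.06 (SE 0.03, adjusted p = 3.1e-07) that was 0.61 at a common total.

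The 3 scaffold genes of the complex, which are not among the 34, were lower too. Eef1e1 had 31.1 and 31.7 scaled FPKM in Cct7 KD, against 53.6 and 55.7 in Cct7 KD Ctr (−0.78), and Aimp1 and Aimp2 changed by −0.60 and −0.58. In the remainder the 3 changed by −0.38, −0.25 and −0.95, all passing the test. Without scaling none of the 3 was lower in Cct5 KD.

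**Figure D3:**
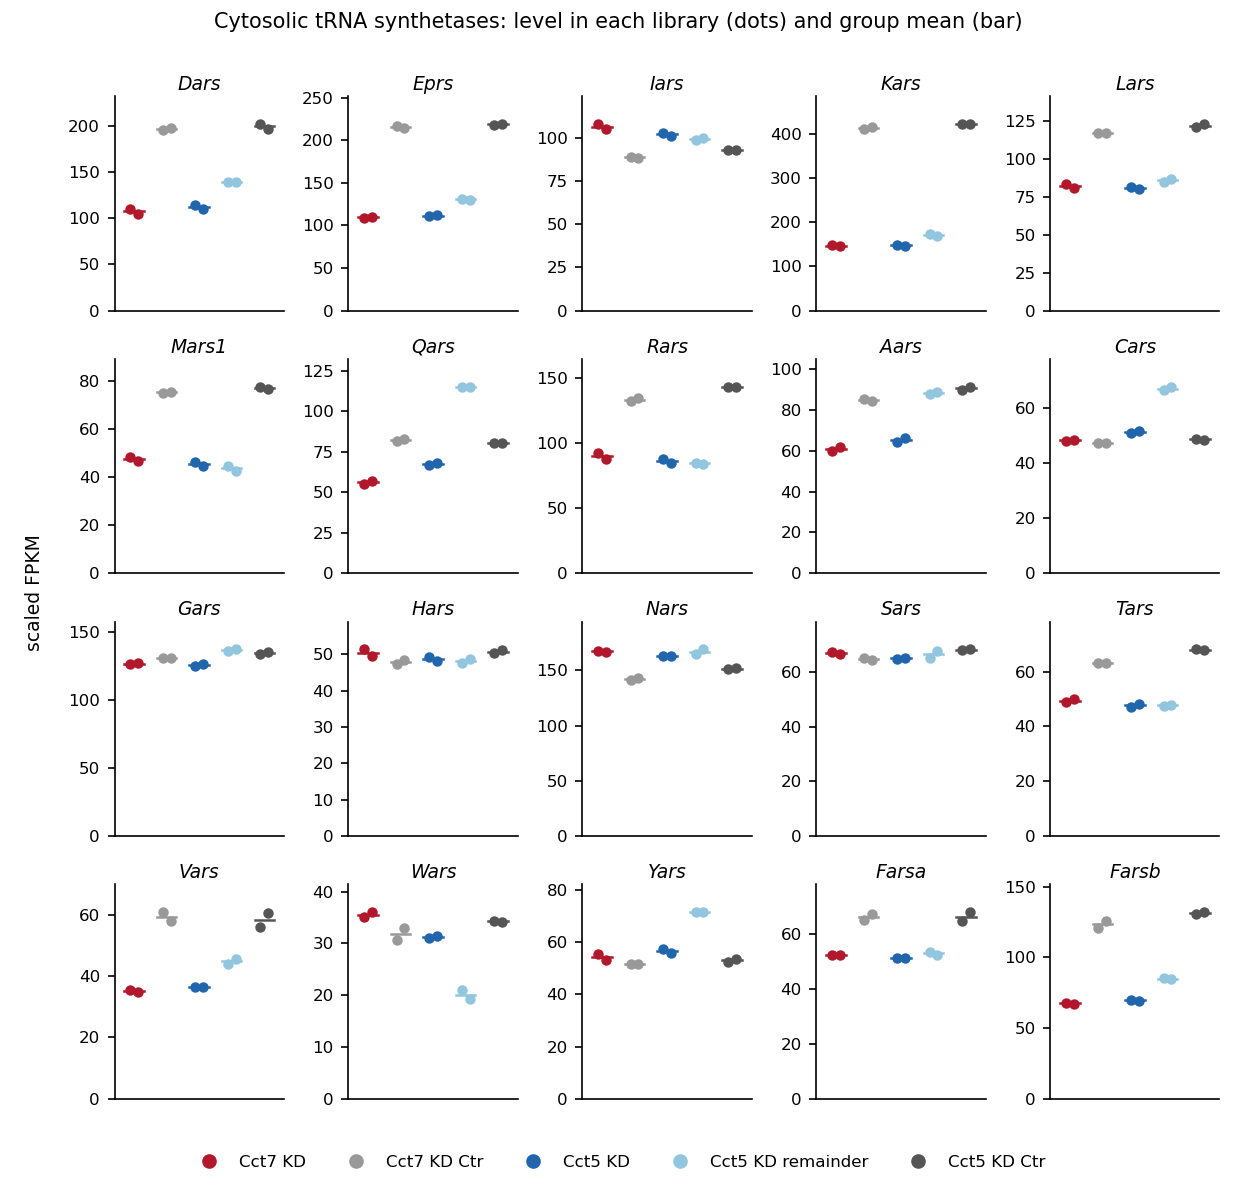
Scaled FPKM of the 20 cytosolic synthetase genes in each library (dots) with the mean of each pair (bar); each panel has its own axis from 0, and the first 8 panels are members of the multi-synthetase complex. Kars, Eprs, Dars and Farsb are lower in all KD values than in any control, Gars, Hars and Sars stay close to the controls, and Qars and Wars differ in direction between Cct7 KD and the remainder.

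The 12 synthetases outside the complex were mixed. In Cct7 KD 2 were higher, 5 lower and 5 not called (median −0.01), in Cct5 KD 3 were higher, 8 lower and 1 not called (−0.12), and in the remainder 3, 5 and 4 (−0.06), while without scaling or at a common total 7 of the 12 were higher in Cct7 KD, and 10 of 12 in Cct5 KD without scaling. At a common total 6 were higher and 5 lower in Cct5 KD, and 2 higher and 9 lower in the remainder (median −0.25). Farsb, the beta subunit of the phenylalanine enzyme, had 67.6 and 67.4 scaled FPKM in Cct7 KD, against 121 and 126 in Cct7 KD Ctr (−0.86, SE 0.03). It had 69.6 and 69.5 in Cct5 KD and 85.3 and 84.6 in the remainder, against 131 and 132 in Cct5 KD Ctr (−0.91 and −0.63). Farsa, the alpha subunit of the same enzyme, changed by less, with 52.5 and 52.4 scaled FPKM in Cct7 KD against 65.0 and 67.2 in Cct7 KD Ctr (−0.33). Vars, Aars and Tars, for valine, alanine and threonine, changed by −0.74, −0.47 and −0.35 in Cct7 KD. In the remainder Vars and Tars were lower (−0.38 and −0.50), whereas Aars, with 88.1 and 89.1 against 89.8 and 91.5 scaled FPKM in Cct5 KD Ctr, did not pass (−0.03, adjusted p = 0.26).

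Wars (ENSMUSG00000021266, chromosome 12, 108860030 to 108894174), for tryptophan, had 35.1 and 36.0 scaled FPKM in Cct7 KD, against 30.7 and 32.9 in Cct7 KD Ctr (0.16, adjusted p = 0.018). It had 31.0 and 31.5 in Cct5 KD and 20.9 and 19.3 in the remainder, against 34.4 and 34.2 in Cct5 KD Ctr (−0.13 and −0.74). The remainder change was below that of Cct7 KD by 0.90 (SE 0.06, adjusted p = 1.1e-05), and the small rise in Cct7 KD lost its call in 2 of the 4 fits that left out 1 library. Nars, for asparagine, was higher in each comparison, with 168 and 167 scaled FPKM in Cct7 KD against 141 and 143 in Cct7 KD Ctr (0.24), but its change in the remainder was −0.06 at a common total. Cars and Yars, for cysteine and tyrosine, did not pass in Cct7 KD and were higher in the remainder, Cars with 66.3 and 67.6 against 48.8 and 48.3 and Yars with 71.4 and 71.5 against 52.4 and 53.7 scaled FPKM in Cct5 KD Ctr (0.46 and 0.42). Gars, Hars and Sars, for glycine, histidine and serine, stayed within 0.10 of their controls in each comparison, and the sign of these values turned with the scaling in at least 1 of them.

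The synthetases were also split into 11 often listed as ATF4 targets and 9 others, by a list drawn up with earlier results of these data known. This split partly repeats that by the complex. Dars, Kars, Lars, Qars and Rars, of the complex, are among the 9, and Eprs, Iars and Mars1 among the 11. The 11 listed targets counted 3 higher, 4 lower and 4 not called in Cct7 KD (median 0.03). They counted 4 higher and 7 lower in Cct5 KD (−0.10) and 4 higher, 4 lower and 3 not called in the remainder (−0.03). Of the 9 others, 8 were lower and none higher in Cct7 KD (median −0.56), 8 lower and none higher in Cct5 KD (−0.67), and 7 lower with Qars higher in the remainder (−0.50). Without scaling these counts in Cct5 KD were 9 higher and 1 lower of the 11, and 4 higher and 2 lower of the 9. In Cct7 KD the 11 listed targets counted 7 higher and 4 lower without scaling and at a common total alike, and the 9 others 1 higher and 8 lower. At a common total the 11 counted 6 higher and 4 lower in Cct5 KD but 2 higher and 8 lower in the remainder, and the 9 others 1 higher and 7 lower in Cct5 KD and 1 higher and 8 lower in the remainder. The difference between these lists was not tested. In summed levels the 11 listed targets had 874 and 871 scaled FPKM in Cct7 KD against 996 in each Cct7 KD Ctr library, and the 9 others had 696 and 681 against 1232 and 1248. Of the 5 synthetases with the core element printed above, Iars was higher in Cct7 KD, Aars and Tars lower, and Gars and Yars not called. All 5 stress response genes with the element, Atf3, Trib3, Nupr1, Asns and Chac1, were higher in each comparison. So were Atf4, Ddit3, Atf5, Cebpg and Ppp1r15a, whose matched windows did not hold these letters.

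**Figure D4:**
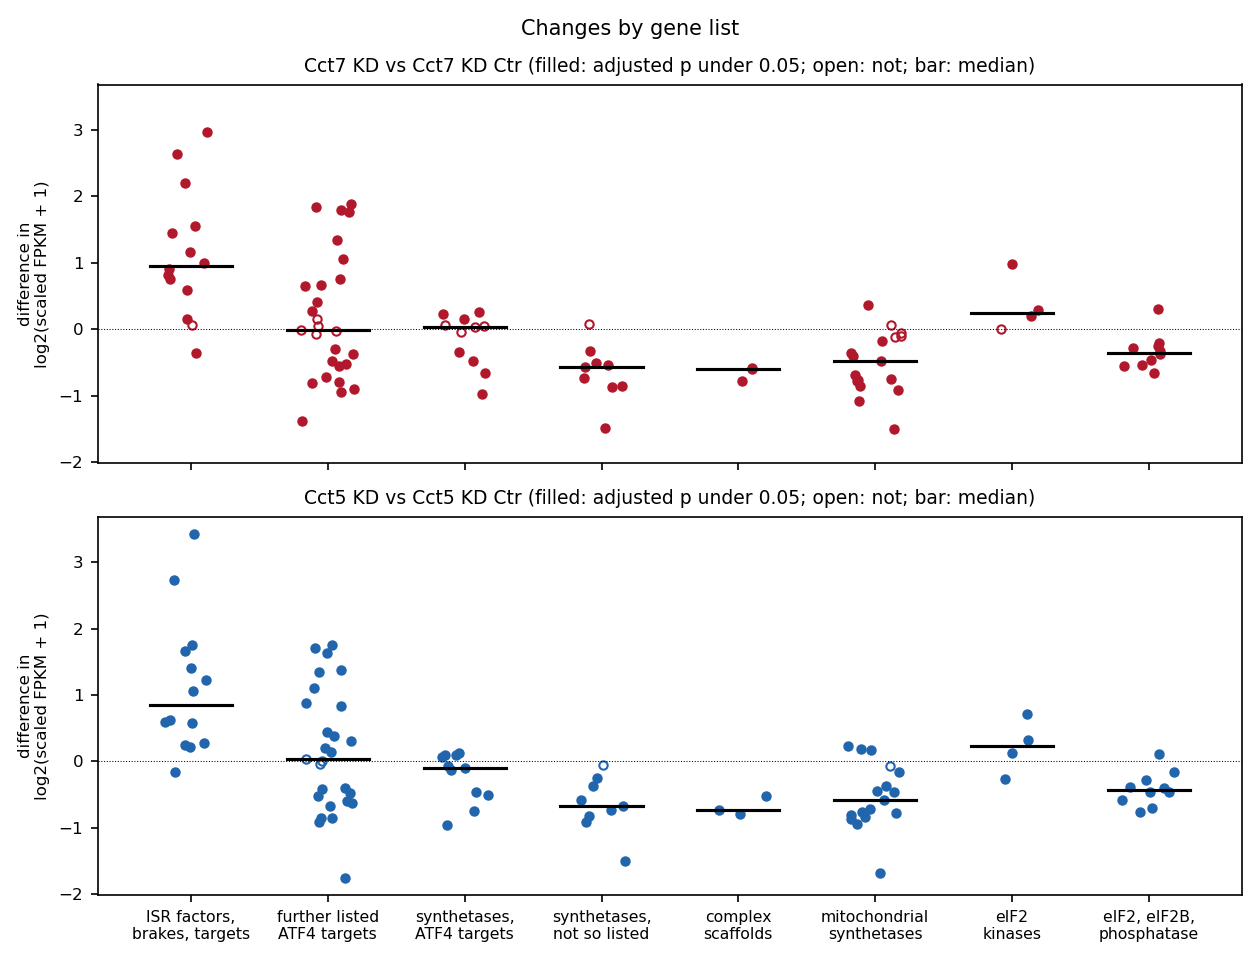
Change of each tested gene by list in Cct7 KD (top) and Cct5 KD (bottom), as the difference in log2(scaled FPKM + 1) from the controls; filled points passed the limma test at an adjusted p under 0.05 and bars are medians. The stress response list has a median of 0.95 in Cct7 KD, while the medians of the synthetases not listed as ATF4 targets (−0.56), the scaffolds (−0.60) and the mitochondrial synthetases (−0.49) lie below 0.

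Other genes of the pathway, named by the smallest p in Cct7 KD, place the 34 in context. Of the 4 eIF2 kinases, 3 were higher and Eif2ak1 (HRI), the sensor of haem shortage, was not called in Cct7 KD. Eif2ak1 was lower in the remainder, with 8.12 and 7.70 scaled FPKM, against 13.9 and 14.2 in Cct5 KD Ctr (−0.76). Its change in Cct5 KD was −0.26, but 0.46 without scaling and not called at a common total (−0.08). Eif2ak2, the interferon-inducible sensor of double-stranded RNA (PKR), had 26.6 and 26.7 scaled FPKM in Cct7 KD, against 13.3 and 12.8 in Cct7 KD Ctr (0.98), but 15.0 and 15.1 in the remainder, against 14.2 and 13.5 in Cct5 KD Ctr (0.12). Eif2ak4 (GCN2), the sensor of uncharged tRNA, changed by 0.29 in Cct7 KD and 0.63 in the remainder, and Eif2ak3 (PERK), the kinase of the endoplasmic reticulum, by 0.21 and by 0.01 (not called, adjusted p = 0.88). Of 10 genes for eIF2, its exchange factor eIF2B, the constitutive phosphatase subunit and the GCN2 inhibitor Impact, 9 were lower in both Cct7 KD and Cct5 KD, although in Cct5 KD 8 were higher without scaling. Eif2b5, the catalytic subunit of eIF2B, had 45.5 and 45.3 scaled FPKM in Cct7 KD, against 70.9 and 74.2 in Cct7 KD Ctr (−0.67). Eif2b2, Eif2b4 and Eif2s3x changed by −0.55, −0.54 and −0.46 in Cct7 KD. Impact, the exception in both and chosen for that after its values were seen, had 781 and 760 scaled FPKM in Cct7 KD, against 624 and 620 in Cct7 KD Ctr (0.31). In the remainder 8 of the 10 were lower and 2 higher, and Impact was among the lower ones, with 579 and 564 scaled FPKM, against 659 and 647 in Cct5 KD Ctr (−0.19). Eif2s3x, which encodes the gamma subunit of eIF2, was higher there, with 103 and 102 scaled FPKM, against 77.1 and 74.9 in Cct5 KD Ctr (0.42). The other higher one, Eif2b3, named after its value was seen, changed by 0.17 and by −0.02 at a common total.

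Further genes often listed as ATF4 targets were divided. Of 27 tested, 11 were higher and 11 lower in Cct7 KD (median −0.01), 13 higher and 11 lower in Cct5 KD (0.04), and 14 higher and 10 lower of 26 in the remainder (0.20); without scaling the counts were 16 and 11 in Cct7 KD, and 22 and 3 in Cct5 KD. At a common total they were 16 and 10 in Cct7 KD, 16 and 11 in Cct5 KD, and 12 and 11 in the remainder. Herpud1, a factor of protein degradation at the endoplasmic reticulum, had 18.6 and 18.8 scaled FPKM in Cct7 KD, against 4.42 and 4.87 in Cct7 KD Ctr (1.80), while its remainder values were 17.9 and 17.3, against 4.47 and 4.75 in Cct5 KD Ctr (1.73). Ddit4 (REDD1), a brake on mTORC1, had 442 and 425 scaled FPKM in Cct7 KD, against 165 and 174 in Cct7 KD Ctr (1.35), and changed by 0.39 in the remainder. In the other direction, the amino acid transporter Slc38a2 had 50.1 and 49.5 scaled FPKM in Cct7 KD, against 133 and 128 in Cct7 KD Ctr (−1.38), while its remainder values were 14.8 and 15.9, against 143 and 138 in Cct5 KD Ctr (−3.12). Phgdh, the first enzyme of serine synthesis, changed by −0.95 and −0.61. Of the 17 mitochondrial synthetases, which serve translation inside the organelle, 12 were lower in Cct7 KD (median −0.49) and Rars2, named after its value was seen, was higher. In Cct5 KD 13 were lower and 3 higher (−0.58), and in the remainder 12 lower and 2 higher (−0.40). Without scaling 10 were lower and 2 higher in Cct7 KD, but 4 lower and 7 higher in Cct5 KD. At a common total 9 were lower in Cct7 KD, 11 in Cct5 KD and 14 in the remainder. Cars2, Tars2 and Iars2 changed by −1.08, −0.76 and −0.49 in Cct7 KD.

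The change of the remainder was set against the change of Cct7 KD in a single fit, each with its own controls, to ask where they differed. The test passed for 30 of the 34 genes, 14 higher and 16 lower, on a background of 37.2% higher and 36.1% lower among 13679 genes. Of the stress response genes 4 were higher in the remainder (Ddit3, Cth, Nupr1 and Cebpg) and 9 lower, and of the synthetases 10 were higher and 7 lower. At a common FPKM total the median of all differences was −0.37, against 0.02 as scaled, the share of higher genes among those called was 24.5%, against 50.8%, and 4 of the 34 genes were higher and 25 lower. Ddit3, Cth, Nupr1 and Qars were the 4 that stayed higher. The 4 genes that did not pass were Trib3, Lars, Sars and Farsa.

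The controls of the Cct5 and Cct7 sets were compared in the same way. Of 13190 genes tested by limma, 0 were called (0% of those tested), with 2343 at an unadjusted p under 0.05, and 458 were called when all 8 libraries shared a fit. For the 20 synthetases the control sets differed by between −0.03 and 0.11, and for the 12 stress response genes that passed the filter by between −0.32 and 0.24.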

How the data were processed

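Poly(A) RNA of 8 libraries, 2 in each of 4 groups given by the sample labels, was read from strand-specific libraries (dUTP), per the labels' protocols. The authors deposited FPKM per Ensembl gene ID in 2 tables, 1 for each knockdown with its own controls. HTSeq and the mm10 assembly are named in the submitters' processing notes, and no aligner, annotation, gene length, filter or strand setting of the counting is given in the sources used here. IDs listed more than once, 8 and 6 per table, were left out, which left 21039 and 20897 IDs, 19896 of them shared. Symbols and coordinates came from GENCODE vM21 (GRCm38), and 26 shared IDs had no symbol.

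FPKM were divided by median-of-ratios factors over IDs above 0 in all 8 libraries, because the totals of Cct5 KD stood apart. The remainder is Cct5 KD minus 9/8 of the same-numbered Cct7 KD value (the most common ratio of these columns, relative tolerance 1e-06), and 15 IDs with a negative value were left out. Genes that averaged at least 1 scaled FPKM in a comparison entered the test in limma 3.58.1 in R 4.3.3 (eBayes with mean trend) on log2 values with a pseudocount of 1, with Benjamini-Hochberg adjustment over all genes tested. An FPKM of 1 fragment on 1 kb was worth 0.0182 to 0.053 in the 6 libraries with a step, and the depth of Cct5 KD is unknown.

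The 34 genes, the other gene lists and the use of the remainder were chosen with earlier results of these data known, and the scaling and other settings after those results too. Named genes are the 34, the 4 with the smallest p in Cct7 KD from each other list, Cct5, Cct7 and the cell type markers. Not every gene this rule names is reported here. Other settings were no scaling, a common FPKM total, no filter, 0.1 as the pseudocount, a 2-fold minimum, a replicate block, a single fit of all 8 libraries, leaving out each library in turn and a longer promoter core. Promoter sequences are from RefSeq (GRCm38.p6).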

Additional observations from a re-analysis of the deposited data

Results flagged for a closer look

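Of the 30 genes whose change in the Cct5 KD remainder differed from their change in Cct7 KD by the limma test of the difference, 7 did so by at least 2-fold on the log2(scaled FPKM + 1) scale, and each kept its call in all 8 fits that left out 1 library. Such differences were common, with 2375 of all 13679 genes tested called at that fold. Of the 7, Ddit3 stood highest, with a change of 4.52 in the remainder against 2.64 in Cct7 KD, a difference of 1.88 (adjusted p = 6.5e-07). Cth differed by 1.70 (adjusted p = 1.1e-06), with opposite directions of 1.34 in the remainder and −0.36 in Cct7 KD. Nupr1 differed by 1.57 (adjusted p = 1.3e-05), with 2.56 in the remainder and 0.99 in Cct7 KD. Qars differed by 1.06 (adjusted p = 3.1e-07), with 0.51 in the remainder and −0.54 in Cct7 KD.

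In the other direction, Stc2 differed by −2.01 (adjusted p = 1.8e-06), with −1.43 in the remainder and 0.59 in Cct7 KD. Atf3 differed by −1.44 (adjusted p = 6.2e-05), with 1.53 in the remainder and 2.97 in Cct7 KD. Chac1 differed by −1.28 (adjusted p = 9.9e-06), with 0.92 in the remainder and 2.21 in Cct7 KD. All 7 kept their direction at a common FPKM total, where the median of all genes lay at −0.37. The remainder is computed from the deposited values, not a library of its own, and Cct7 itself had a level of 885 and 881 scaled FPKM in the remainder against 14.9 and 18.2 in Cct7 KD.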

How the results depend on the processing

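No filter and a pseudocount of 0.1 changed no call of the 34 genes and moved no count by over 1.5 times. Without scaling, Cct5 KD counted 27 of the 34 genes higher and 3 lower, and changes that turned round were Gars in Cct7 KD (0.14) and, in Cct5 KD, Sesn2 (0.59), Aars (0.31), Gars (0.68), Hars (0.71), Lars (0.18), Mars1 (0.017), Qars (0.52), Rars (0.048), Sars (0.70), Tars (0.27), Vars (0.10), Wars (0.63) and Farsa (0.40). This setting was not run for the remainder or the difference, since the remainder holds 28.7% of the Cct5 KD total by construction. At a common FPKM total they were Gars in Cct7 KD (0.21), Sesn2 (0.028), Gars (0.094), Hars (0.13), Sars (0.12) and Wars (0.058) in Cct5 KD, and Gars (−0.17), Iars (−0.10) and Nars (−0.06) in the remainder. In the difference between the remainder and Cct7 KD, 4 genes were then higher and 25 lower, and Cebpg (−0.062), Aars (−0.003), Cars (−0.021), Dars (−0.10), Eprs (−0.22), Gars (−0.38), Kars (−0.26), Lars (−0.44), Vars (−0.078), Yars (−0.091), Farsa (−0.44) and Farsb (−0.21) turned round; the shift of the median gene is part of that scaling. Besides these, 5 values of the 34 genes gained and 1 lost a call without scaling, and 10 gained and 2 lost one at a common total. With all 8 libraries in a single fit, Gars (−0.05) and Hars (0.08) gained a call in Cct7 KD. With a fold of at least 2, genes called were 2799 in Cct7 KD, 2348 in Cct5 KD, 2808 in the remainder and 2375 in the difference, and of the 34 genes 6, 7, 5 and 4 were higher and 1, 1, 2 and 3 lower in these comparisons. Between the controls, 3 genes were called at a common total and 458 with all 8 libraries in a single fit, 2 of the 34 higher and 1 lower. Leaving out 1 library gave 0 to 33 calls there, 33 without the first Cct7 KD Ctr library; the cause was not tested. Leaving out 1 library ended the call of Cebpg and Wars in Cct7 KD, of Cars, Cebpb, Sars, Sesn2 and Yars in Cct5 KD, and of Cebpb, Gars and Nars in the difference, and added that of Cebpb in the remainder (0.45 without the second Cct5 KD Ctr library) and of Sars in the difference (−0.11). The longer core TGATGNAAT was in a promoter of 4 of the matched genes in place of 10. Same-numbered libraries of a KD group and its controls deviated with correlations of −0.04 in Cct7 KD, −0.02 in Cct5 KD and −0.12 in the remainder, so the numbers pair nothing there; with the replicate block, 10984 genes were called in Cct7 KD, 11287 in Cct5 KD, 11001 in the remainder and 9957 in the difference, and 1 of the values of the 34 genes lost its call, the difference of Gars (0.07, limma adjusted p = 0.0598). With the numbers crossed for the remainder, a setting chosen after seeing the data, 11125 genes were called, 16 of the 34 higher and 13 lower. Depth limits the lowest genes, among the 34 mainly Cebpb near 1 FPKM and Atf3 in the controls. Chac1 in Cct7 KD Ctr (1.45 and 1.63 scaled FPKM) and Stc2 in the remainder (1.64 and 1.82) were low too.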
